A study of Mus musculus with 5 samples.

Results

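Double-positive (DP) thymocytes, the CD4+CD8+ stage at which developing T cells rearrange and test their receptor, carried 2514 intergenic H3K4me3 peaks away from the starts of protein-coding genes. These were 2514 of the 14237 peaks in the wild-type (WT) H3K4me3 list. A peak was taken as intergenic when it lay on an autosome, held at most 10 RPM, and had its midpoint outside every protein-coding gene body and more than 5 kb from every protein-coding transcription start site (TSS). RPM are reads (tags) per 1000000 mapped, summed here over the 200-bp windows of a peak. Of the 14166 autosomal peaks of at most 10 RPM, 7734 were promoter-near, with a midpoint within 5 kb of a protein-coding TSS, and 3918 were intragenic. A further 9 intergenic autosomal peaks lay above 10 RPM, and 34 lay on other chromosomes.

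Trimethylation of lysine 4 on histone H3 is laid down by Setd1 and MLL methyltransferase complexes and marks active promoters. Cxxc1, a subunit of the Setd1 complex, binds unmethylated CpG dinucleotides, which are dense in CpG islands. Away from protein-coding genes the mark is known at promoters of noncoding RNA genes, at unannotated promoters and, more weakly, at active enhancers. The gene desert beside Bcl11b, a zinc-finger factor required for T cell commitment, is a known example of distal control in thymocytes.

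The WT mice were Cxxc1 fl/fl and the Cxxc1-deficient mice were Cxxc1 fl/fl with an hCD2-Cre transgene, which deletes the floxed gene from early thymocytes onward. Both were of C57BL/6 background and, per the study's methods, 3 to 4 weeks old unless stated otherwise. The titles call the deficient samples KO while their genotype label reads Cxxc1+/-, a conflict that could not be resolved here. Each of the 5 samples was 1 library of bulk sorted cells, and lists were analysed for WT H3K4me3, Cxxc1-deficient H3K4me3 and Cxxc1 itself. With 1 library per group there was no replicate check and no test between groups. The intervals below are 95% intervals over peaks or tags and cover counting error only. In bulk cells, a mark on fewer cells and less mark per cell cannot be told apart.

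As a check of the cell label, 4 of 9 DP thymocyte genes on the marker list had a WT H3K4me3 peak within 1 kb of a TSS: Cd3e, Cd8a, Cd8b1 and Lck. The count was 2 of 6 for B cell genes (Cd79b and Ebf1), 1 of 6 for myeloid genes (Cebpb), 1 of 4 for erythroid genes (Klf1) and 0 of 5 for thymic epithelial genes. Over all autosomal protein-coding genes, 32.5% had such a promoter peak. Cd4, Rag1, Rag2, Cd3g and Cd2 had none, so the list did not hold every gene that defines these cells. The part of other cell types in the results below was not tested.

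A set of 6 intergenic peaks shows what this sequence looked like. Each line below is the 300 bp centred on the strongest 200-bp window of a peak, from the plus strand of NCBIM37 (mm9). Capitals mark matches on either strand to the short strings listed further on. The first is the strongest peak with neither a CpG island nor a noncoding TSS, upstream of Vdac1, a channel of the outer mitochondrial membrane.
Vdac1 peak, chr11:52152751-52153050: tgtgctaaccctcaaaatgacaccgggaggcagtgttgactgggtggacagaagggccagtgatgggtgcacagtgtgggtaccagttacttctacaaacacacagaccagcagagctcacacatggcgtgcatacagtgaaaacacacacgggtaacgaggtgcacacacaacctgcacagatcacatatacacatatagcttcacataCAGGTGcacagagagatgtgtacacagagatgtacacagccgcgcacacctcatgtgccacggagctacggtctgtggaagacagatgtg
The strongest peak at both a noncoding TSS and a CpG island lay at Gm10151, a long intergenic noncoding RNA (lincRNA) gene upstream of Wasf2, a regulator of actin assembly.
Gm10151 peak, chr4:132643751-132644050: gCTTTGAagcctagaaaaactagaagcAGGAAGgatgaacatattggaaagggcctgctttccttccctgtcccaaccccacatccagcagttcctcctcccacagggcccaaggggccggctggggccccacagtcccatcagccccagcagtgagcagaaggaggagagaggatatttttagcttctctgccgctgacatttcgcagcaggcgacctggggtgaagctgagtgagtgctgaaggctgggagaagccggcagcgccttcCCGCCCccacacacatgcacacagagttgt
The strongest intergenic peak of all also overlapped a Cxxc1-deficient H3K4me3 peak, and its nearest protein-coding TSS was that of Gm10479.
Gm10479 peak, chr12:20239151-20239450: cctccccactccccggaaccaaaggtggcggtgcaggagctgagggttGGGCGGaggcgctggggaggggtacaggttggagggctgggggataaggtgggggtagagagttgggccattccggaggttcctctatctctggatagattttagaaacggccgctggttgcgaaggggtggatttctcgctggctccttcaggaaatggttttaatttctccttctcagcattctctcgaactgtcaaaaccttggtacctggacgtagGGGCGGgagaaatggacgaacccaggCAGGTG
The strongest peak that overlapped a Cxxc1 peak lay upstream of Gabbr2, a subunit of the GABA-B receptor.
Gabbr2 peak, chr4:47020751-47021050: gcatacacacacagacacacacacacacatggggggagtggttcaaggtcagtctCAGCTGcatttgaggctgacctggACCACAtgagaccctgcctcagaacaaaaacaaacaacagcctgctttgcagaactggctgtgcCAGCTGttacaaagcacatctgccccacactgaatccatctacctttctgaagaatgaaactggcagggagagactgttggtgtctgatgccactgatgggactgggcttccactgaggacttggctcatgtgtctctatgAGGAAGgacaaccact
The strongest peak nearest to a gene on the thymocyte lists lay beyond Socs1, an inhibitor of cytokine signalling.
Socs1 peak, chr16:10753751-10754050: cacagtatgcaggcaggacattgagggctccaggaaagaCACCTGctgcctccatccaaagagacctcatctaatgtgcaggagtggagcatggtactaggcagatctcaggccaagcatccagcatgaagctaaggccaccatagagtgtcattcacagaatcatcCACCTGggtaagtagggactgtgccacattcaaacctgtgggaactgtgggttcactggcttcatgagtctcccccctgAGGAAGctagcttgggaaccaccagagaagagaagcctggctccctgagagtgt
The T cell receptor alpha locus gave the last, between the constant gene Trac and Dad1.
Trac peak, chr14:54845551-54845850: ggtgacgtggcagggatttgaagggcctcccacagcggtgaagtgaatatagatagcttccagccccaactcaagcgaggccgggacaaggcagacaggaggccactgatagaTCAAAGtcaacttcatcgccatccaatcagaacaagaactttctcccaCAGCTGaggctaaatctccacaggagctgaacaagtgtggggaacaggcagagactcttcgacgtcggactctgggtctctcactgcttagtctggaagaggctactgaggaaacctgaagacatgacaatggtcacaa
The Gabbr2 window lies outside the Cxxc1 peak that its H3K4me3 peak overlapped, chr4:47023001-47025000, and the Gm10479 window likewise lies outside the overlapping deficient peak. The Gabbr2 and Socs1 windows held 0 CpG, whereas the Gm10479 window held 13, the Vdac1 and Trac windows 8 each and the Gm10151 window 7. GC content lay between 51.3% in the Gabbr2 window and 58.3% in the Gm10151 window. Although the Gm10151 peak overlapped a CpG island, its strongest window had an observed to expected CpG ratio of only 0.275.

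Intergenic peaks resembled intragenic peaks in strength and were weaker than promoter-near peaks. At 3.1 RPM or more lay 365 of the 2514 intergenic, 637 of the 3918 intragenic and 2255 of the 7734 promoter-near peaks. The intergenic median was 2.1 RPM (95% interval 2.0 to 2.1), against 2.4 RPM (2.4 to 2.5) for promoter-near peaks and 2.1 RPM (2.1 to 2.1) for intragenic peaks. The median width was 1600 bp in all 3 classes. The middle 50% of intergenic peaks lay between 1.7 and 2.6 RPM, and the weakest held 1.1 RPM. The median peak of 2.1 RPM amounts to about 20 tags, for which counting error alone gives 12.2 to 30.9, so the order of single weak peaks is not firm. Only 36 intergenic peaks, 1.43% (1.04 to 1.98), were 4000 bp or wider, against 2.64% (2.30 to 3.02) of promoter-near peaks. Intergenic sequence was also marked far less often: 1.85 peaks per Mb of eligible sequence, against 4.94 per Mb of gene bodies and 31.6 per Mb within 5 kb of a TSS.

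**Figure D1:**
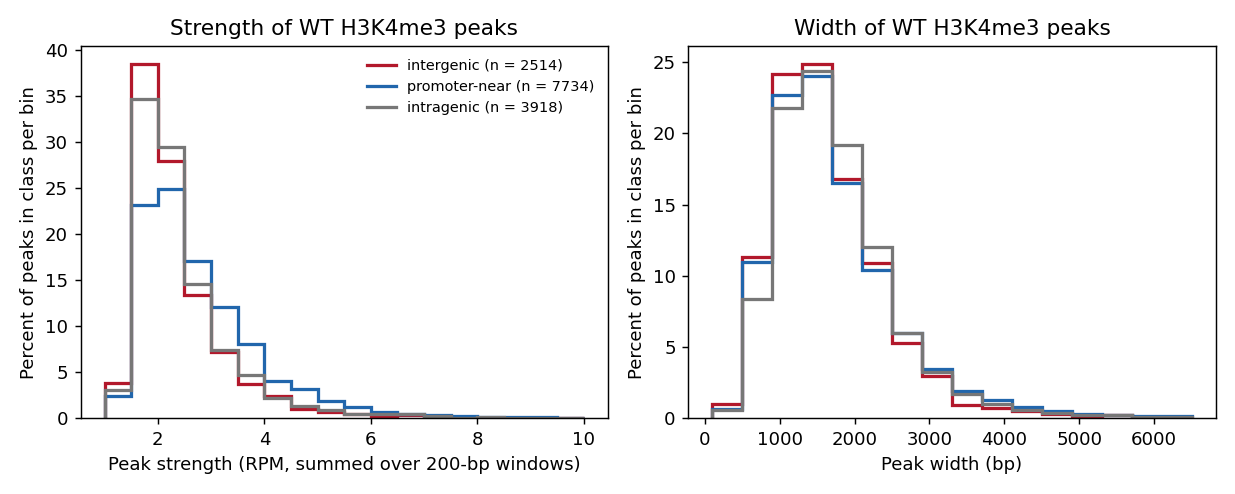
Strength (left, RPM summed over windows) and width (right, bp) of WT H3K4me3 peaks, as the percent of each position class per bin. The intergenic and intragenic lines nearly coincide around their shared median of 2.1 RPM, while the promoter-near line has more of its area above 3 RPM.

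The peaks were spread over every autosome, but unevenly. Chromosome 11 carried 3.85 per eligible Mb and chromosome 3 carried 0.758 per Mb. The median distance to the nearest protein-coding TSS was 30.5 kb (29.0 to 32.2), with 14.4% between 5 and 10 kb and 116 peaks beyond 200 kb. The nearest TSS lay downstream of the peak for 58.6% (56.7 to 60.5), so the peak sat on the upstream side of that gene. A gene end lay less than 5 kb upstream of 366 peaks, 14.6%. Strength differed little with distance: the median was 2.1 RPM in each band up to 100 kb and 1.9 RPM between 100 and 500 kb. The most remote peak, chr8:52000801-52002600, held 1.5 RPM at 1450 kb from the TSS of 4930555F03Rik and overlapped a CpG island. The next, at 1210 kb from Lphn3, held 6.9 RPM, and 14.5% of the 32-bp words in its window occurred more than once in the genome. At the 5 kb limit, the closest intergenic peak lay 5.02 kb from the Gcgr TSS with 2.3 RPM, and the closest excluded peak outside a gene lay 5.0 kb from Oaz1 with 2.1 RPM. At the strength limit, the strongest intergenic peak held 9.5 RPM and the weakest excluded peak held 10.5 RPM, 14.3 kb from Cbx8.

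The 10 strongest intergenic peaks ranged from 6.9 to 9.5 RPM and were mostly broad. The Gm10479 peak, chr12:20237001-20240400, held 9.5 RPM, or about 90 tags (72.4 to 111). The Vdac1 peak, chr11:52151801-52156800, held 8.4 RPM, or 79 tags (62.5 to 98.5), over 5000 bp. A 6000-bp peak at chr5:112103001-112109000 held 7.9 RPM, 95.6 kb from C130026L21Rik, and a 5400-bp peak 5.82 kb upstream of Irf1, an interferon-induced transcription factor, also held 7.9 RPM. The widest, at 6400 bp, held 7.7 RPM at 41.1 kb from Actg1, which encodes cytoplasmic gamma-actin. Counting intervals of these peaks overlapped, so their order among themselves is open. A peak of another shape stood at the noncoding gene Pisd-ps2, 32.8 kb from Scaf8: 7.4 RPM within 1600 bp, with 2.7 RPM in its top window against a median top window of 0.5 RPM. In that window 37.5% of the 32-bp words were multicopy. Words of that kind made up over 50% of the window in 20 of the 2514 peaks (0.796%, 0.516 to 1.23), against 0.233% (0.147 to 0.368) of promoter-near peaks. Uniquely mapped reads had been used, and the part of repeated sequence in these peaks was not tested.

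Annotated noncoding gene starts lay close to a small share of the peaks. A noncoding-gene TSS lay within 1 kb of 137 intergenic peaks, 5.45% (4.63 to 6.41), against 5.1% of all 14166 WT peaks. The share was 6.72% (6.19 to 7.30) for promoter-near peaks and 1.66% (1.30 to 2.11) for intragenic peaks. Such a TSS is the annotated 5' end of the entry, also for miRNA genes and pseudogenes, and was not tested as a start of transcription. These 137 peaks included 49 at genes typed as processed transcripts, 45 at lincRNA genes, 13 at miRNA genes, 12 at pseudogenes and 10 at snoRNA genes. They touched 42 of 1232 annotated autosomal lincRNA genes, or 3.41%, but 12 of 4055 pseudogenes, or 0.296%. Peaks at noncoding starts had a median of 2.3 RPM (2.1 to 2.4), slightly above the 2.1 RPM (2.0 to 2.1) of the others, and 72 of the 137 overlapped a CpG island.

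The strongest of them were the Pisd-ps2 peak described above and the Gm10151 peak, chr4:132639601-132644200, both at 7.4 RPM, with midpoints 0.295 and 0.512 kb from their noncoding TSSs. At 6.9 RPM followed chr19:5846801-5850600, 0.193 kb from the TSS of Gm9783 and 3.22 kb from that of Neat1, whose long noncoding RNA builds nuclear paraspeckles. A neighbouring peak of 2.9 RPM lay 0.377 kb from the Neat1 TSS and overlapped a CpG island. A peak of 1.8 RPM lay inside Malat1, which encodes an abundant nuclear RNA, and one of 2.4 RPM lay 3.83 kb from its TSS, on the side of Neat1. The Malat1 and Neat1 peaks were picked out after their values were seen. The next was the 6.6 RPM peak at Gm16084, described below with the Bcl11b desert. Other strong peaks at noncoding starts were those of Mir124a-3 (5.3 RPM), 4833417C18Rik (4.8 RPM), AI854703 (4.6 RPM) and the lincRNA gene Dleu2 (4.2 RPM), each at a CpG island. The annotation also sets limits: Gfi1, a known zinc-finger repressor of lymphoid cells, is typed there as a processed transcript, so its 2 peaks of 2.2 and 2.9 RPM counted as intergenic. The stronger overlapped a Cxxc1-deficient peak of 3.4 RPM, with 2.5 RPM in each list over the 8 windows in both.

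Among the 13 peaks at miRNA genes, 5 genes matched RefSeq (GRCm38.p6) by symbol. The 3 strongest of these are shown with both mature arms and the seed, bases 2 to 8, in capitals. Mir34a is a known target of p53, Mirlet7i belongs to the let-7 family, and Mir148a is expressed in lymphocytes.
mmu-miR-34a-5p: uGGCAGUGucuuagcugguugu
mmu-miR-34a-3p: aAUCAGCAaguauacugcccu
mmu-let-7i-5p: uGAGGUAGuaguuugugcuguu
mmu-let-7i-3p: cUGCGCAAgcuacugccuugcu
mmu-miR-148a-3p: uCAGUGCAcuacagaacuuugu
mmu-miR-148a-5p: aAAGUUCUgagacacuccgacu
The 6 arms had 6 different seeds. The peak at Mir34a held 3.6 RPM over 3000 bp, that at Mirlet7i 3.5 RPM over 1600 bp at a CpG island, and that at Mir148a 2.6 RPM. Weaker peaks lay at Mir210, which responds to hypoxia, with 2.3 RPM, and at Mir411 with 1.5 RPM. None of these 5 peaks overlapped a Cxxc1-deficient or a Cxxc1 peak.

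Both receptor chains' loci carried intergenic peaks. In the T cell receptor beta locus, chr6:41493401-41494400 held 1.8 RPM, or 17 tags (9.90 to 27.2), and its midpoint lay 0.092 kb from the start of the joining segment Trbj2-7. Beyond the 3' end of Trac, chr14:54843401-54846400 held 4.4 RPM, or 42 tags (30.3 to 56.8), at 2.13 kb past the gene end, and chr14:54850401-54851200 held 1.6 RPM at 8.03 kb. The enhancer of the alpha locus is known to lie in the stretch between Trac and Dad1. No Cxxc1-deficient and no Cxxc1 peak overlapped any of the 3.

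CpG islands separated intergenic from promoter-near peaks. An island of at least 500 bp overlapped 359 intergenic peaks, 14.3% (13.0 to 15.7), against 74.9% (73.9 to 75.8) of promoter-near peaks and 5.56% (4.89 to 6.33) of intragenic peaks. Island peaks were stronger, with a median of 2.4 RPM (2.3 to 2.5) against 2.0 RPM (2.0 to 2.1) for other intergenic peaks. Neither an island nor a noncoding start lay at 2090 of the 2514, or 83.1% (81.6 to 84.5). Both shares rest on the definition of an island: with a looser one, of 200 bp, 50% GC and a ratio of 0.6, islands overlapped 45.1% of the peaks and 53.6% (51.7 to 55.6) had neither. The island share was 21.8% (17.8 to 26.3) between 5 and 10 kb from a TSS and 8.21% (5.54 to 12) between 100 and 200 kb. In the 300 bp around the strongest window, the median observed to expected CpG ratio was 0.25 (0.244 to 0.259) for intergenic, 0.237 (0.232 to 0.242) for intragenic and 0.64 (0.625 to 0.652) for promoter-near peaks. GC content was 53.3% at the median intergenic window, above the 41.9% of all autosomal 300-bp tiles, and the windows held a mean of 6.91 CpG, against 2.54 per tile and 18.1 per promoter-near window.

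**Figure D2:**
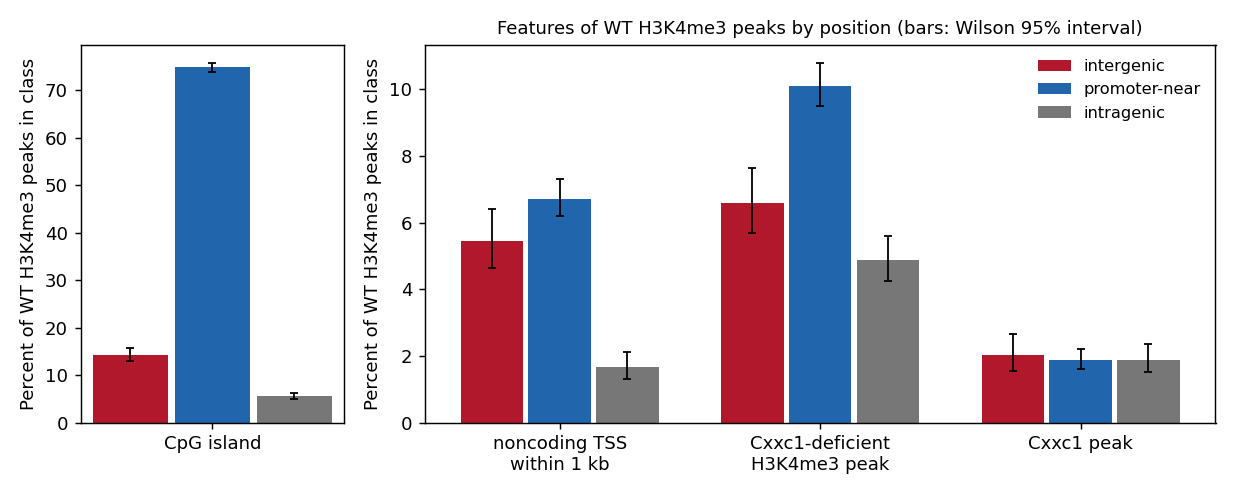
Percent of WT H3K4me3 peaks in each position class that overlapped a CpG island (left) or had the feature named under the bars (right), with Wilson 95% intervals. Promoter-near peaks stand far above the others for islands, at 74.9%, while the Cxxc1 bars lie between 1.89% and 2.03% in all 3 classes.

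Short strings known from the binding sites of thymocyte factors were counted in the same windows on both strands. CAGCTG, an E-box read by E proteins, occurred in 22.9% (21.3 to 24.6) of intergenic windows and 10.9% of all tiles. CAGGTG, another E-box, occurred in 30.8% (29.0 to 32.6) against 17.3%, and AGGAAG, the core of ETS sites, in 40.3% (38.4 to 42.2) against 30.0%. TGTGGT, read by RUNX factors, was found in 22.3% (20.7 to 23.9) against 20.2% of tiles and 14% (13.2 to 14.8) of promoter-near windows. CTTTGA, read by TCF factors, and AGATAA, read by GATA factors, were less frequent than in tiles, at 17.7% against 22.3% and 9.55% against 19.1%. AGGGGGC, from the CTCF core, stood at 7.84% against 2.38% and GGGCGG, the GC box, at 15.2% (13.8 to 16.7) against 2.94%, but GGGCGG reached 43.9% (42.8 to 45.1) of promoter-near windows. CAGCTG and CAGGTG share their outer letters, and no string contains another. Among 32851 RefSeq promoters of the same length, 16.3% held CAGCTG, 20.2% CAGGTG, 35.4% AGGAAG, 16.8% TGTGGT, 16.0% CTTTGA, 11.2% AGATAA, 10.6% AGGGGGC and 35.7% GGGCGG. GC content differed between windows and tiles as given above, and its part in these shares was not tested.

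**Figure D3:**
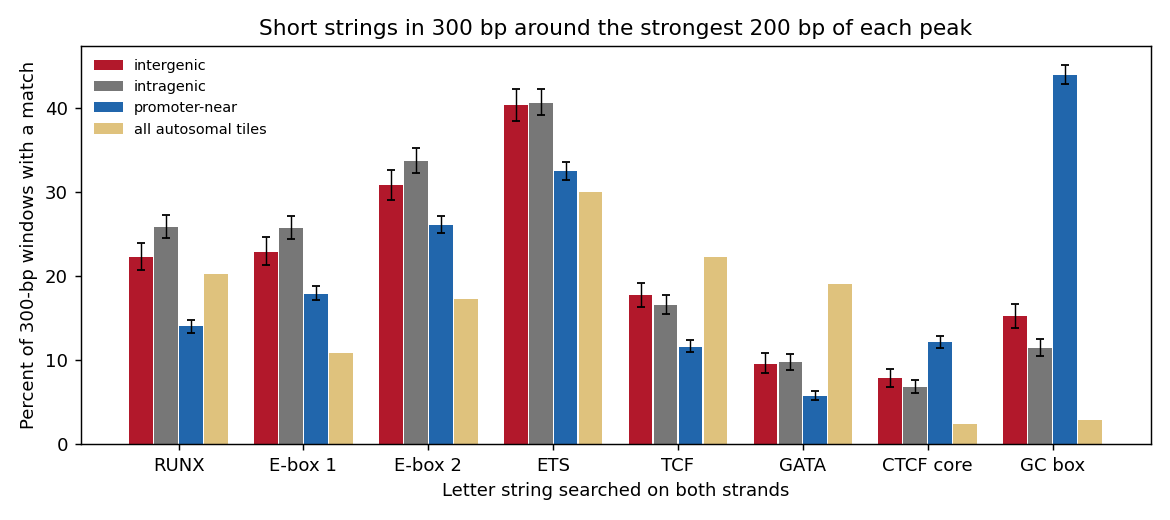
Percent of 300-bp windows that held a match on either strand to the strings given in the text, named by the factors that read them. E-box 1 is CAGCTG and E-box 2 is CAGGTG. Bars are peaks by class with Wilson 95% intervals, and all autosomal tiles. Intergenic bars lie nearer to the intragenic than to the promoter-near ones. Even so, RUNX stood at 22.3% of intergenic against 25.8% of intragenic windows, and the GC box at 15.2% against 11.4%. The GC box separates promoter-near peaks at 43.9%.

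A counterpart in Cxxc1-deficient thymocytes was listed for only a small share of WT peaks in every position class. The deficient list was itself shorter, at 2961 peaks against 14166 by the same limits. A Cxxc1-deficient H3K4me3 peak overlapped 166 of 2514, or 6.60% (5.70 to 7.64), against 8.06% of all 14166 WT peaks, 10.1% (9.5 to 10.8) of promoter-near peaks and 4.87% (4.24 to 5.59) of intragenic peaks. The files give no value at places outside called peaks, so a missing counterpart is no measure of how much mark remained. The study's methods name Cxxc1-deficient ChIP among the controls of the caller, without saying for which mark. Had it served as control for WT H3K4me3, regions marked in both genotypes would be listed less often. The part of this in the shares here was not tested. The share was higher among stronger WT peaks. It was 3.17% (2.21 to 4.55) at 1.8 to 2.2 RPM, where promoter-near peaks had 7.67% (6.59 to 8.90), and 15.1% (11.8 to 19.1) at 3.1 RPM and above, where promoter-near peaks had 15.7% (14.3 to 17.3). Stronger peaks were also wider, with a median of 2000 bp for the stronger 50% of intergenic peaks against 1600 bp for all. An overlap of 1 bp was enough, and the part of width in these shares was not tested. Among peaks of 2.3 to 3.0 RPM the intergenic share of 9.98% (7.85 to 12.6) lay above the intragenic share of 4.07% (3.01 to 5.47). Intergenic peaks at a CpG island overlapped the deficient list more often, at 13.1% (9.99 to 17.0) against 5.52% (4.63 to 6.57). Above 2.2 RPM the shares were 19.4% (14.5 to 25.4) with an island and 9.94% (8.02 to 12.2) without, whereas up to 2.2 RPM they were 5.06% (2.59 to 9.67) and 3.04% (2.26 to 4.09), with overlapping intervals.

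**Figure D4:**
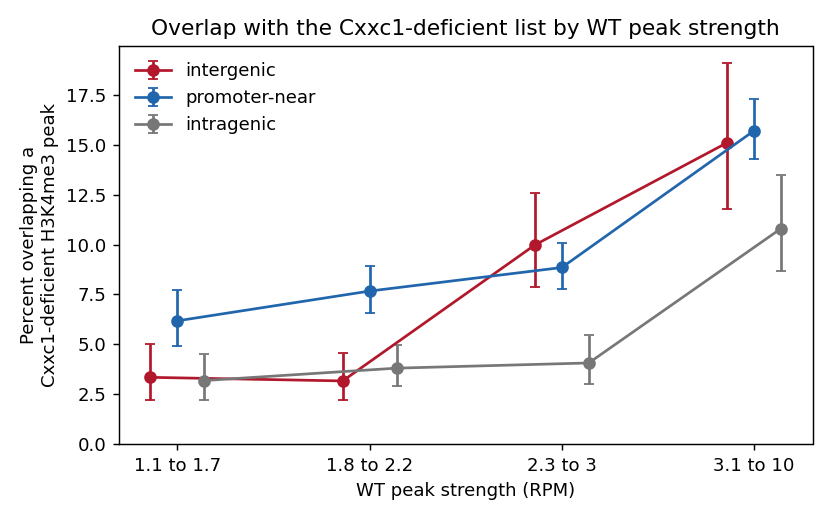
Percent of WT H3K4me3 peaks that overlapped a Cxxc1-deficient H3K4me3 peak, by WT strength (RPM) and position class, with Wilson 95% intervals. Intergenic peaks sit with intragenic ones below 2.3 RPM and with promoter-near ones above it, reaching 15.1% in the strongest bin.

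Where both lists had a peak, the 2 peaks often covered different sequence, so sums over whole peaks move with what was called. At the Vdac1 peak, 8.4 RPM over 5000 bp in WT stood beside 1.4 RPM over 800 bp in the deficient list, and over the 3 windows listed in both the sums were 1.3 and 1.4 RPM. At the Gm10151 peak, 7.4 RPM over 4600 bp stood beside 1.5 RPM over 1200 bp, with 1.3 and 1.2 RPM over 3 shared windows. The peaks upstream of Csrnp1, a nuclear protein induced by axin, held 7.3 and 5.7 RPM but shared 800 bp only, with 1.0 and 0.6 RPM over 2 shared windows. At the Gm10479 peak, 9.5 and 3.3 RPM shared 400 bp, with 0.6 and 0.9 RPM over 2 windows. These shared sums rest on few tags, so no order between genotypes can be read from any of the 4. Over all 166 places, 601 windows were in both lists, a median of 3 per peak, at a mean of 0.432 RPM per window in WT and 0.376 RPM in the deficient list. The means were 0.41 and 0.354 RPM over 3052 windows of promoter-near peaks. The shared sum was higher in WT at 93 of the 166 places, equal at 29 and lower at 44. Whole-peak widths were alike, with medians of 1800 bp in WT and 1700 bp in the deficient list. Windows listed in both had passed a caller's limit in each, so these values do not describe places with a peak in WT alone. RPM scale each library to its own tags, so they cannot show a change in total mark. The study reports lower total H3K4me3 in deficient DP cells by an immunoassay. In the other direction, 171 of the 733 intergenic peaks of the deficient list, 23.3% (20.4 to 26.5), overlapped a WT peak, against 56.2% (53.6 to 58.8) of its 1385 promoter-near peaks. The deficient list held 2961 autosomal peaks of at most 10 RPM.

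Few WT peaks of any class overlapped Cxxc1 itself. A Cxxc1 peak overlapped 51 intergenic peaks, 2.03% (1.55 to 2.66), against 1.91% of all WT peaks, and the intervals of the 3 classes overlapped. Intergenic peaks at CpG islands had a higher share, 4.74% (2.98 to 7.45), than the others, 1.58% (1.13 to 2.2). Counted from the Cxxc1 list the classes differed: 54 of its 1699 intergenic peaks met a WT H3K4me3 peak, 3.18% (2.44 to 4.12), against 17.4% (15 to 20.2) of its 810 promoter-near peaks. The Gabbr2 peak, chr4:47020001-47024800, paired 6.7 RPM of H3K4me3 with a Cxxc1 peak of 3.2 RPM. A 600-bp peak 184 kb from Samd9l paired 6.2 with 5.8 RPM, and 68.8% of the 32-bp words in its window were multicopy. Only 4 intergenic peaks overlapped both a Cxxc1 and a Cxxc1-deficient H3K4me3 peak. The 3 strongest lay about 10 kb upstream of Osgin1 (5.6 RPM), 11.2 kb from Grb7 (5.2 RPM) and 12.9 kb from Fos, an immediate early transcription factor (3.2 RPM).

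Marked genes had more intergenic peaks around them. The 2514 peaks were nearest to 1641 protein-coding genes, 7.66% of the 21410 on autosomes, and 1182 of these genes were nearest to 1 peak only. The nearest gene had a WT H3K4me3 promoter peak for 1300 intergenic peaks, or 51.7% (49.8 to 53.7). By gene, 48.2% (45.8 to 50.6) of the 1641 had a promoter peak, against 31.2% (30.5 to 31.8) of the other 19769. Genes differ in how much intergenic sequence is closest to them. Per Mb of such sequence, genes with a WT promoter peak had 3.91 intergenic peaks (3.70 to 4.13, Poisson interval) and genes without had 1.19 (1.12 to 1.25). For 291 intergenic peaks, 11.6% (10.4 to 12.9), the nearest gene had a promoter peak in the deficient list, in which 1305 genes had one.

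Intergenic peaks also came in groups. With midpoints joined within 50 kb, a distance chosen after the data were seen, 1306 peaks (51.9%) fell into 452 groups of 2 or more, and 53 groups held 5 or more. The fullest was the 14 peaks in 193 kb at chr17:84389001-84581800, and 12 of them were nearest to Zfp36l2, an RNA-binding protein that limits mRNA stability and is known to act in thymocyte development. From the farthest to the nearest, at 158 to 6.18 kb from the TSS, these 12 held 1.6 to 5.6 RPM, and the 3 strongest, of 5.0, 4.9 and 5.6 RPM, stood at 66.7, 26 and 6.18 kb. A Cxxc1-deficient peak overlapped 3 of the 12. Another group of 13 lay in 198 kb around Cstad, with 6 at CpG islands. Between Pmepa1 and 1700021F07Rik, 13 lay in 149 kb, and 12 lay in 260 kb around Ets2, a member of the ETS family. Zmiz1, a coactivator known to act with Notch1 in thymocytes, was nearest to 10 peaks of 1.3 to 3.6 RPM, all upstream at 37.4 to 334 kb. Cebpb, a factor of myeloid cells with a marked promoter in this list, was nearest to 9 peaks of 1.5 to 4.7 RPM, and 2 of these overlapped a Cxxc1 peak. The other 5 myeloid markers had no promoter peak and no intergenic peak nearest to them.

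The gene desert downstream of Bcl11b held a long row of intergenic peaks. Between Vrk1 and the 3' end of Bcl11b, 1830 kb apart, there were 28 peaks of 1.4 to 6.6 RPM, and the only protein-coding gene annotated there is 3110018I06Rik. That gene was nearest to 15 of them and had no promoter peak itself. The strongest, chr12:108394801-108400200 at 6.6 RPM over 5400 bp, lay 844.3 kb from the Bcl11b TSS and 0.916 kb from the start of the noncoding gene Gm16084. Peaks of 2.7, 2.0, 3.1 and 1.5 RPM stood within 40 kb of it. The 6.6 RPM were summed over 21 windows, against 8, 6, 10 and 4 windows in these neighbours. Its top window held 0.5 RPM, and theirs held 0.6, 0.5, 0.5 and 0.5 RPM, so it was wider rather than higher. A nearer set of 4.1, 3.3, 3.6 and 3.7 RPM lay 115.8, 192.0, 250 and 253.2 kb from the Bcl11b TSS. Of the 28, 2 overlapped a Cxxc1-deficient peak, 1 overlapped a CpG island and 0 overlapped a Cxxc1 peak, where the shares over all intergenic peaks were 6.60%, 14.3% and 2.03%. Both other lists nevertheless had peaks in the desert away from these 28. Among them were Cxxc1 peaks of 4.2 RPM at 428.2 kb and 2.6 RPM at 486.2 kb from the Bcl11b TSS. Deficient H3K4me3 peaks of 2.3 and 2.1 RPM stood at 769.8 and 600.1 kb. The other side of Bcl11b had 4 more intergenic peaks of 2.1 to 2.7 RPM in its 103 kb, and the closest, at 13.0 kb, overlapped a deficient peak.

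**Figure D5:**
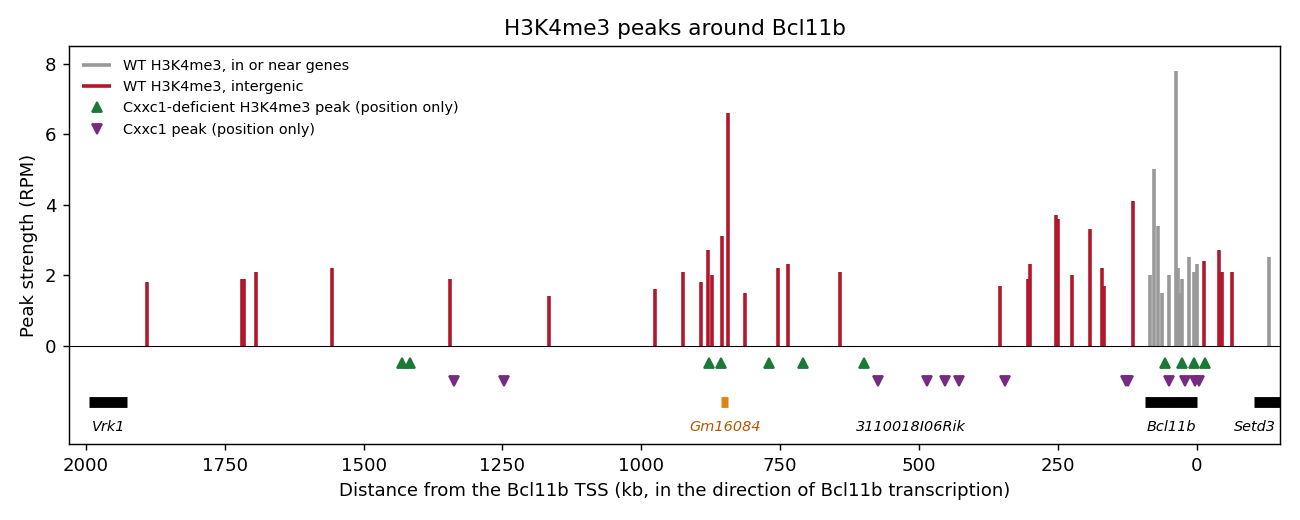
WT H3K4me3 peaks by distance from the Bcl11b TSS (kb, drawn in the direction of transcription), with height in RPM. Red lines are intergenic peaks and grey lines peaks in or near genes, triangles give positions of peaks in the other lists, and bars are gene bodies. The peak at Gm16084 sums to 6.6 RPM over 5400 bp, and its narrower intergenic neighbours within 40 kb sum to 3.1 RPM or less.

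Genes that direct T cell development had intergenic peaks nearest to them more often than the 7.66% of all genes. Of 34 T lineage transcription factors on the list that were autosomal and protein-coding, 22 (64.7%) were nearest to at least 1 intergenic peak, 69 peaks in all with a median of 2.1 RPM. Of 43 receptor and signalling genes, 14 (32.6%) were, with 31 peaks and a median of 2.2 RPM. These peaks came to 7.64 per Mb (5.95 to 9.67) of the sequence closest to the factors, against 1.85 per Mb for all genes. For the receptor and signalling list the rate was 8.77 per Mb (5.96 to 12.5). Intervals on such rates take peaks as independent, although many came in groups, and do not cover the spread between genes. That list includes Ets2, itself a transcription factor, which was nearest to 8 of the 31 peaks. Socs1 and Socs3 were nearest to 5 each. High rates were not limited to T cell genes: the myeloid markers came to 49.6 per Mb (22.7 to 94.2), with all 9 peaks nearest to Cebpb, while the B cell and erythroid markers had 0 peaks, with upper limits of 11.4 and 14.1 per Mb. A promoter peak was present at 29 of the 34 factors (85.3%) and at 19 of the 43 receptor and signalling genes (44.2%), beside 32.5% of all genes. A Cxxc1-deficient peak overlapped 6 of the 69 peaks and 1 of the 31, beside 6.60% of all intergenic peaks. The lists were drawn up from general knowledge of thymocytes but with results of these data known, so the counts are a description.

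Bcl11b was nearest to 11 peaks and Runx3, which directs the CD8 lineage, to 8 of 1.6 to 4.1 RPM at 5.67 to 76.5 kb. At 52.7 kb from Runx3, a WT peak of 2.5 RPM over 2200 bp overlapped a deficient peak of 3.9 RPM over 3600 bp. Over the 4 windows in both, the sums were 1.2 RPM in WT and 1.4 RPM in the deficient list. Runx1, needed from early thymocytes on, was nearest to 6 peaks of at most 2.5 RPM, reaching 367 kb. Id3, an inhibitor of E proteins, had 4, led by 5.2 RPM at 37.0 kb, and the next, 2.6 RPM at 32.9 kb, overlapped a Cxxc1 peak of 2.0 RPM. Its relative Id2 had a peak of 4.5 RPM at 171 kb that overlapped one of 4.2 RPM in the deficient list, with 3.9 and 3.3 RPM over the 10 windows in both. Sox4, a SOX factor of lymphoid progenitors, had a peak of 4.7 RPM at 5.22 kb. Tcf7 and Lef1, HMG-box factors of the Wnt pathway, had 2 and 3 peaks of 2.1 to 3.0 RPM. The 8.4 RPM Vdac1 peak lay in the gap between the starts of Tcf7 and Vdac1, upstream of both. It was counted for Vdac1, whose TSS was the nearer at 20.1 kb. Notch1, the receptor that starts the T cell programme, had 3 of 2.0 to 3.2 RPM, 8.62 to 27.6 kb away. Ets1, an ETS factor of lymphocytes, had 4 peaks of 2.1 to 2.3 RPM although no WT peak was listed at its promoter. Gata3, needed for the CD4 lineage, had a single peak of 1.7 RPM at 54.7 kb.

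Around receptor and signalling genes, Socs1 had 5 peaks, led by the 5.5 RPM peak at 31.6 kb, and Socs3, a related inhibitor, also had 5, of 1.8 to 3.6 RPM. Cd6, a surface receptor of T cells, had a peak of 4.0 RPM at 41.8 kb from its TSS. That peak reached into the 3' end of Cd6, and only its midpoint lay outside the gene. Ccr7, the receptor that guides thymocytes to the medulla, had 4.1 RPM at 22.8 kb and no promoter peak. Cd247, the zeta chain of the receptor complex, had 3.6 RPM at 7.51 kb, and Lat, the adaptor downstream of it, had 3.4 and 3.1 RPM, the weaker overlapping a deficient peak of 2.8 RPM, with 1.3 and 1.4 RPM over 4 shared windows. Zap70, the kinase that binds the zeta chain, had 2.6 RPM at 6.75 kb from a TSS, just past the 3' end of the gene. Cd8a, the alpha chain of the CD8 coreceptor, had 2.5 RPM at 21.1 kb. No Cxxc1-deficient peak overlapped the intergenic peak of Zap70 or of Cd8a, although both genes had a promoter peak in the deficient list. The study reports reduced H3K4me3 at both promoters in deficient cells, and the levels of these promoter peaks were not compared here.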

How the data were processed

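ChIP-seq of DP thymocytes gave 5 libraries, 1 per group, and 3 files of called windows were used. Groups came from the sample titles. The Cxxc1 file names no genotype, and its assignment to WT follows the methods of the study. According to these and to the processing notes, reads were called with CASAVA 1.8.2, uniquely mapped to mm9 and passed to SICER 1.1 with input and Cxxc1-deficient ChIP as controls. The aligner, the handling of duplicates and the control used for H3K4me3 are not given in the sources used here. All of them affect which regions were called. The authors deposited RPM per 200-bp window at 1 decimal for called regions only. No comparison across genotypes was normalized beyond RPM.

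Windows with at most 2 missing windows between them were joined. Neighbouring decimals put 1 tag at 0.1056 to 0.1062 RPM in both H3K4me3 lists, a mapped total of about 9420000 to 9470000 tags, and at 0.1094 to 0.1099 RPM in the Cxxc1 list. Genes, TSSs (protein-coding transcripts) and sequence were GENCODE vM1 and NCBIM37, the assembly of mm9, with matching chromosome names and lengths. CpG islands had a length of 500 bp or more, GC from 55% and an observed to expected CpG ratio from 0.65. Where windows tied as strongest, the first was used. The reference was not soft-masked, so multicopy 32-bp words stood in for repeats. The sequence closest to each gene omits gaps and sums to 2513 of the 2514 peaks, since genes that share a TSS are counted once. Python 3.11.15, numpy 2.4.6, pandas 2.3.3 and scipy 1.17.1 were used. Joins, overlaps, islands and motif counts were tested on simulated data, and overlaps matched bedtools.

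Levels in both H3K4me3 lists were also summed over the windows listed in both. Named peaks were the strongest 10, those at noncoding starts, receptor segments and listed genes, the strongest overlapping other lists, the most remote and those at the limits. Members, lists and rules were chosen with earlier results of these data known. A peak that overlapped both other lists is not reported here by name.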

Additional observations from a re-analysis of the deposited data

How the results depend on the processing

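Of 78 alternative values for 9 results, 54 stayed within the main interval (for the number of peaks, within 1.5 times) and 24 did not. No paired analysis was possible because every group consisted of a single library. Limits of more than 2 kb and more than 20 kb moved the median distance to 26.8 and 52.7 kb. At 20 kb 1623 peaks were left, with 12.3% at CpG islands. The stronger 50%, 1306 peaks by construction, had a median of 2.6 RPM, a width of 2000 bp, a distance of 28.6 kb, and shares of 6.74% at noncoding starts, 18.5% at islands, 9.57% overlapping the deficient list, 2.68% overlapping Cxxc1 and 54.3% with a marked nearest gene. Leaving out peaks in noncoding gene bodies gave 2.58% at noncoding starts and 12.9% at islands. Requiring 50% overlap gave 1.43% for Cxxc1, while counting peaks within 1 kb gave 7.96% for the deficient list and 2.74% for Cxxc1. Noncoding starts within 500 bp and 5 kb gave 3.58% and 12.6%. Looser islands (200 bp, 50% GC, ratio 0.6) gave 45.1%, so the island share rests on the definition. Promoter peaks within 5 kb gave 59.3% with a marked nearest gene. In alternatives chosen after seeing the data, every transcript of a protein-coding gene as a TSS gave 28.7 kb, and reading CpG in the 300-bp window alone gave 8.75%. Leaving out mostly multicopy peaks kept all 9 results inside their intervals. Merging peaks within 1 kb and leaving out gene ends did the same for the results they were run on, and so did lifting the strength limit for number, strength and width. Depth limits single peaks: at about 20 tags a weak peak lies near the calling limit, and absence from a list is no measure of signal.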
